A study of Mus musculus with 15 samples.

Results

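The genes described here are 38 genes of blood vessel endothelial cells and of vessel growth, taken from the expression table by symbol out of 24891 genes, and all 38 were present. They cover junction and surface proteins, VEGF receptors and ligands, the angiopoietin-TIE system, transcription factors, the apelin and Notch genes of sprouting vessels, the mural cell attractant PDGFB, caveolae, adhesion molecules and lymphatic vessels. RNA sequencing covered 15 libraries, 3 in each of 5 groups. All groups were tumors of 105K cells, a Tsc2-deficient line that arose in the kidney of a Tsc2+/− mouse, grown under the skin of wild-type C57BL/6J mice. Bulk tumors carried a control shRNA (sh-NC) or the first shRNA against B7-H3, sh-B7-H3 (1), and sorted tumor cells had sh-NC, the same first shRNA or a second one, sh-B7-H3 (2). B7-H3 is an immune checkpoint protein encoded by CD276. The transduced cells were drug-selected pools rather than single clones, they were injected in growth factor reduced matrigel, and the hosts kept their own vessels and immune cells. For sorted cells, a magnetic kit had removed cells of the host from the dissociated tumor. The study's methods call the 3 replicates biological samples, and neither they nor the labels say whether each came from its own animal, so the p-values measure the spread between these samples.

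Endothelial cells line vessels and are held together by CDH5 and CLDN5 at their junctions. New sprouts are led by tip cells, which respond to VEGF through KDR, express APLN, ESM1 and ANGPT2, and restrain their neighbors through the Notch ligand DLL4. ANGPT1 from mural cells stabilizes vessels through the receptor TEK, and ANGPT2 counters it during remodeling.

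Levels are FPKM (fragments scaled by transcript length and by library size) divided by a scaling factor per library, hereafter scaled FPKM, and the values of sh-NC or sh-B7-H3 (1) libraries are given in the order of replicates 1, 2 and 3. Fold changes are differences of log2(scaled FPKM + 1), which understates the change of low genes, and genes entered a test with 1 scaled FPKM in 3 or more libraries of the comparison. A gene was called when the adjusted p of limma was under 0.05. MIR6236 held between 6.01% and 79.7% of the summed FPKM of a library, and scaling factors lay between 0.65 and 1.18. Read totals are not in the table, and the spacing of the lowest values implied between about 15700000 and 33400000 fragments a library. CD276, the targeted gene, was at 20.8, 23.2 and 23.5 scaled FPKM in bulk sh-NC libraries and at 22.3, 17.8 and 24.4 in bulk sh-B7-H3 (1) libraries, a log2 fold change of −0.07 (adjusted p = 0.709, limma). In sorted cells it was between 17.3 and 34.0 in sh-NC, between 7.29 and 14.0 in sh-B7-H3 (1) and between 23.3 and 25.7 in sh-B7-H3 (2). The log2 fold change against sorted sh-NC was −1.04 in sh-B7-H3 (1), where the groups did not overlap but the gene was not called (adjusted p = 0.0547, limma). In sh-B7-H3 (2) it was 0.12 (adjusted p = 0.775, limma). Bulk tumors labelled sh-B7-H3 (1) and sorted cells labelled sh-B7-H3 (2) therefore showed no lower CD276 level, and every direction below is that of the libraries so labelled.

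1 sorted library stood apart from its group. Sorted sh-B7-H3 (2) replicate 1 had the highest level among the 9 sorted libraries for 32 of the 38 genes, and for 20 it lay within the range of the bulk tumors. Its summed level of 5 leukocyte markers was 176 scaled FPKM, against 1.96 to 6.77 in the 8 other sorted libraries. Results on sorted sh-B7-H3 (2) are given with and without it.

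**Figure D1:**
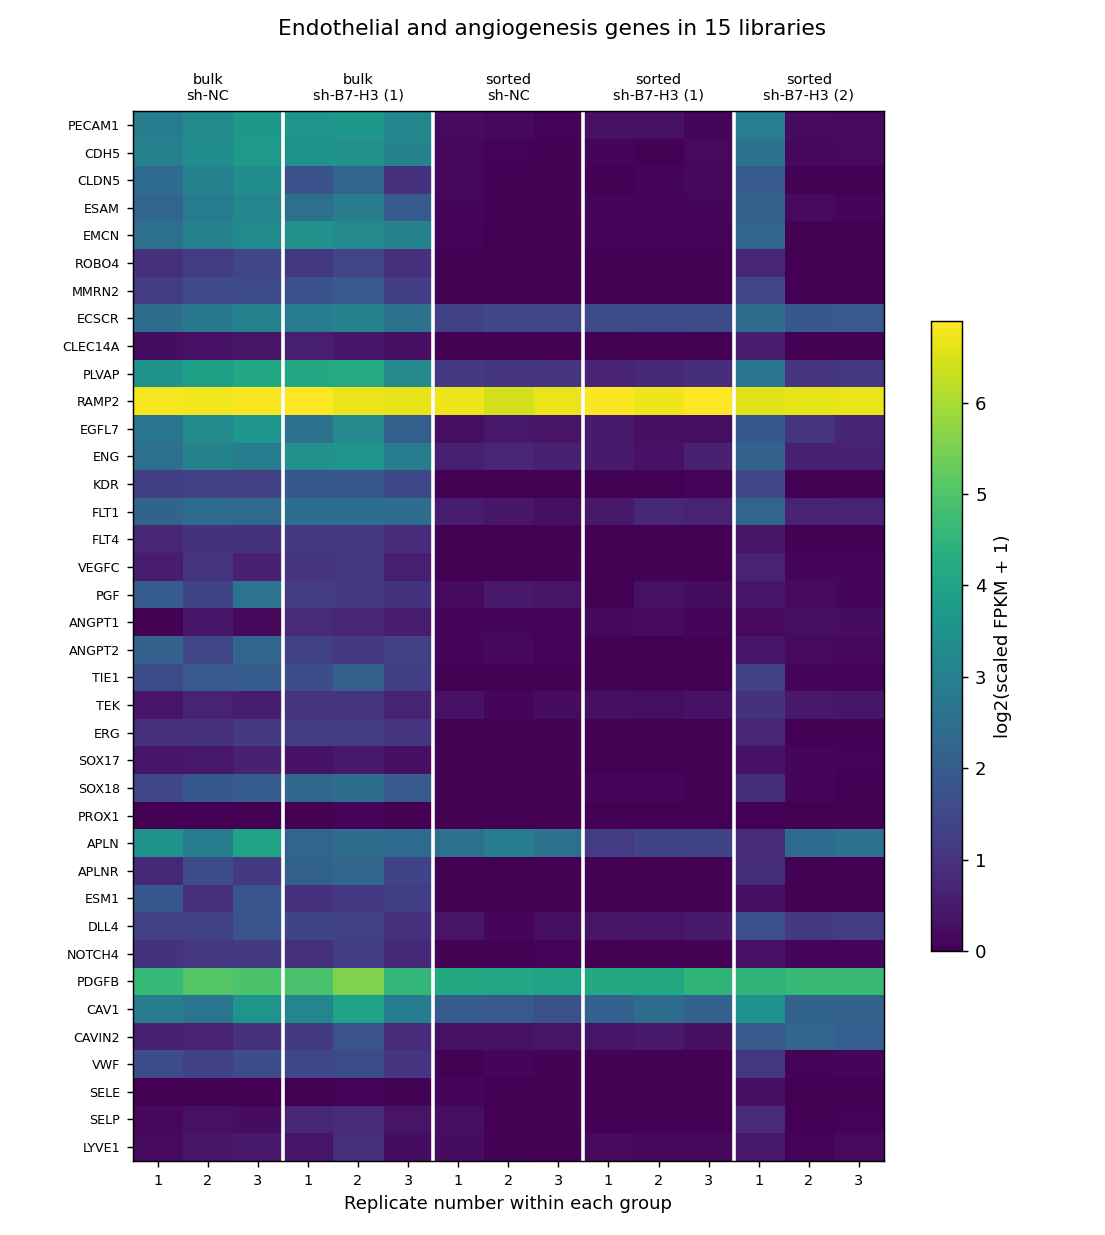
Level of each of the 38 genes (rows) in each of the 15 libraries (columns, grouped by material and shRNA), with color giving log2(scaled FPKM + 1). Bulk tumors and sorted sh-B7-H3 (2) replicate 1 are filled across most rows, and RAMP2 and PDGFB are filled in every library.

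In bulk sh-NC tumors the genes spanned a wide range, and these levels can be compared between genes because FPKM is per length. RAMP2, which carries the adrenomedullin receptor to the cell surface, was the highest at 110.8 ± 4.2 scaled FPKM (SD, n = 3). PDGFB followed at 28.5 ± 4.5, PLVAP, a protein of endothelial diaphragms, at 13.6 ± 2.8, and APLN, the ligand apelin, at 10.7 ± 4.4, with spreads that overlapped between PLVAP and APLN. Of the 38 genes, 19 were at 1 scaled FPKM or more in each of the 6 bulk libraries. The 7 genes below 1 in every bulk library were ANGPT1, CLEC14A, LYVE1, PROX1, SELE, SELP and SOX17. PROX1, the master regulator of lymphatic endothelium, rested on 0 to 10.3 implied fragments in the bulk libraries, and the inducible adhesion molecule SELE on 0 to 2.83. These 2 genes were at the limit of detection at this depth. The lymphatic receptor LYVE1 was between 0.15 and 0.39 scaled FPKM in bulk sh-NC and between 0.16 and 0.95 in bulk sh-B7-H3 (1) libraries.

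The endothelial markers PECAM1, CDH5, TIE1, CLDN5 and ERG, which are themselves genes of the set, were read as a sum. Their summed level was between 18.7 and 37.96 scaled FPKM in the 6 bulk tumors and between 0.11 and 0.39 in the 8 sorted libraries other than sh-B7-H3 (2) replicate 1, which had 16.9. In those 8 libraries 27 of the 38 genes stayed below 0.5 scaled FPKM throughout. Another 5 (RAMP2, PDGFB, APLN, CAV1 and ECSCR) were at 1 scaled FPKM or more in each of them, so the set is not endothelial throughout. In bulk tumors, fewer endothelial cells and less RNA per endothelial cell cannot be told apart.

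The replicates of a bulk group differed in the whole set. Among the 19 genes at 1 scaled FPKM or more in every bulk library, sh-NC replicate 3 was the highest of its group for 15 and replicate 1 the lowest for 14. In the sh-B7-H3 (1) group, replicate 2 was the highest for 13 and replicate 3 the lowest for 17. The libraries that were highest, sh-NC replicate 3 and sh-B7-H3 (1) replicate 2, were also those in which MIR6236 took the largest share of summed FPKM, 79.7% and 74.4%, against 17.2% to 41.6% in the 4 other bulk libraries. The part of that share in the levels was not tested.

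The main comparison asked whether vessel genes differed between bulk tumors labelled sh-B7-H3 (1) and sh-NC. CLDN5, the claudin of endothelial tight junctions, and APLN fell, and no gene of the set rose. Of the 29 genes tested, 0 were higher and 2 lower, 6.9% in all, against a background of 21.4% of 11800 genes called (12.8% higher and 8.52% lower). At an unadjusted p under 0.05, 3 were higher and 4 lower. Here and below, no share of all genes at an unadjusted p is given, so such counts are not read against a background. The median log2 fold change of the 29 genes was 0.02, with 15 above 0, beside 0.02 over all genes tested, of which 52.6% were above 0. The share of calls in the set and the background share were not compared by a test. Calls in this comparison depended on single libraries. Without sh-B7-H3 (1) replicate 1, 546 genes of the whole table were called and 0 of the set. Without sh-B7-H3 (1) replicate 3, 3 of the set were higher (KDR, ENG and APLNR) and 0 lower. Without sh-NC replicate 2, 4 were lower (PGF, ANGPT2, APLN and ESM1), and without sh-NC replicate 3, 0.

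**Figure D2:**
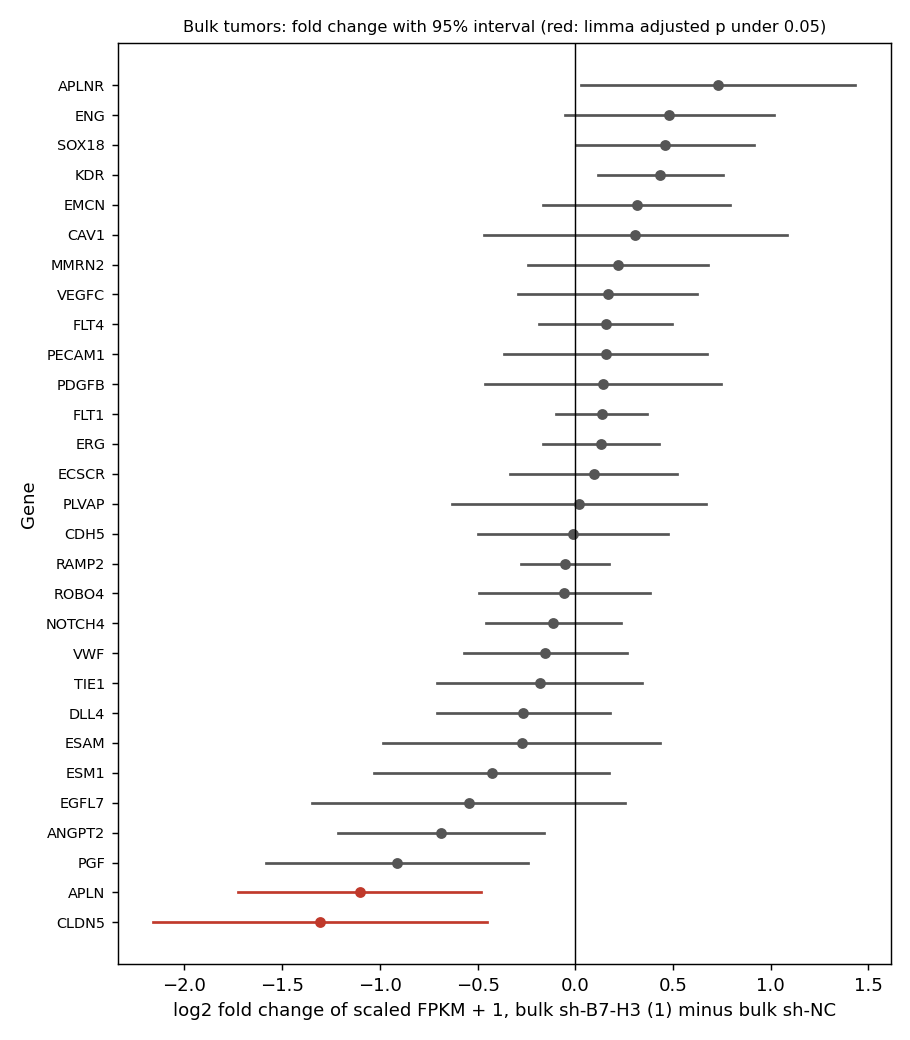
Log2 fold change of scaled FPKM + 1, bulk sh-B7-H3 (1) minus bulk sh-NC, for the 29 genes tested, sorted by size, with points for the estimate and lines for its 95% interval (limma, n = 3 libraries a group). CLDN5 and APLN, in red, are the 2 with an adjusted p under 0.05, at −1.31 and −1.10, and most other intervals cross 0.

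Junction and surface proteins made up 13 of the genes, of which 12 were tested and 1, CLDN5, was called. CLDN5 was at 4.36, 7.34 and 9.49 scaled FPKM in bulk sh-NC and at 2.34, 3.72 and 0.97 in bulk sh-B7-H3 (1) libraries. Every sh-NC library was above every sh-B7-H3 (1) library. The log2 fold change was −1.31 ± 0.36 (SE; adjusted p = 0.0441, limma). Its direction was the same under all alternatives, with an adjusted p between 0.00039 and 0.145, and the call was lost in 8 of 12 settings, among them leaving out sh-NC replicate 2 (adjusted p = 0.123) or 3 (0.145), or sh-B7-H3 (1) replicate 1 (0.129) or 3 (0.0747).

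None of the other 11 tested junction and surface genes passed the test. PECAM1, the adhesion molecule CD31, was at 6.55, 8.90 and 11.9 scaled FPKM in sh-NC and at 10.7, 11.7 and 7.89 in sh-B7-H3 (1) libraries. CDH5, the vascular cadherin, was at 7.05, 9.19 and 12.3 in sh-NC and at 10.3, 10.1 and 7.43 in sh-B7-H3 (1) libraries. The groups overlapped for both genes. The log2 fold change was 0.15 for PECAM1 (95% interval −0.37 to 0.68, adjusted p = 0.629, limma) and −0.01 for CDH5 (−0.50 to 0.47, adjusted p = 0.972, limma). ESAM, another junction adhesion molecule, was at 3.74, 6.10 and 7.85 against 4.86, 6.43 and 2.87, and EGFL7, a secreted endothelial factor, at 5.38, 8.61 and 11.4 against 5.10, 8.44 and 3.23. EGFL7 shares 14.1% of its annotated exon bases with another gene model, so its value is less certain. EMCN, a surface sialomucin of capillaries and veins, was at 4.85, 7.20 and 8.76 in sh-NC and at 10.2, 8.43 and 7.49 in sh-B7-H3 (1) libraries. ENG, the TGF-beta co-receptor endoglin, was at 4.74, 7.50 and 6.55 against 10.2, 11.1 and 6.38, and also overlapped (log2 fold change 0.48, adjusted p = 0.158, limma). The remaining tested genes of this group, ROBO4, MMRN2, ECSCR, PLVAP and RAMP2, had log2 fold changes between −0.06 and 0.22. The untested CLEC14A was between 0.16 and 0.28 scaled FPKM in sh-NC and between 0.22 and 0.50 in sh-B7-H3 (1) libraries.

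To set CLDN5 against the endothelial content of each library, its level was divided by that of PECAM1 plus CDH5 in the same library, a ratio chosen after the values were seen that does not depend on the scaling between libraries. The ratio was 0.321, 0.406 and 0.393 in bulk sh-NC and 0.111, 0.170 and 0.0632 in bulk sh-B7-H3 (1) libraries. Every sh-NC ratio was above every sh-B7-H3 (1) ratio (two-sided exact permutation p = 0.1, the smallest that 3 libraries against 3 allow). Sorted sh-B7-H3 (2) replicate 1, which held endothelial markers at bulk levels, had a ratio of 0.252, between the groups. The ratio was computed for 4 more genes. That of KDR was 0.104, 0.0870 and 0.0604 in sh-NC and 0.128, 0.121 and 0.118 in sh-B7-H3 (1) libraries, again with no overlap and in the opposite direction (two-sided exact permutation p = 0.1). That of ANGPT2 overlapped, at 0.259, 0.0955 and 0.157 against 0.0721, 0.0544 and 0.102, although its level does not. The ratio of EMCN also overlapped, at 0.357, 0.398 and 0.362 against 0.486, 0.385 and 0.489, as did that of ESM1, at 0.195, 0.0520 and 0.107 against 0.0469, 0.0528 and 0.0940.

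The VEGF receptors were all 3 tested and none was called. KDR, the main signaling receptor of VEGF, was at 1.41, 1.57 and 1.46 scaled FPKM in bulk sh-NC and at 2.69, 2.65 and 1.81 in bulk sh-B7-H3 (1) libraries. All sh-B7-H3 (1) libraries were above all sh-NC libraries, with a log2 fold change of 0.44 ± 0.14 (SE; adjusted p = 0.0609, limma), and the adjusted p was 0.0227 without sh-B7-H3 (1) replicate 3. KDR passed in only 2 of 13 settings, and the limma adjusted p reached 0.431 in others. FLT1, the decoy-like receptor of VEGF and PGF, also did not overlap, at 3.68, 4.36 and 4.24 against 4.66, 4.59 and 4.49, but the difference was small (log2 fold change 0.13, adjusted p = 0.339, limma). FLT4, the receptor of VEGFC, was between 0.66 and 1.02 in sh-NC and between 0.83 and 1.27 in sh-B7-H3 (1) libraries. Over the tested genes of the set, 2 had sh-B7-H3 (1) libraries all above (KDR and FLT1) and 4 all below (CLDN5, APLN, PGF and ANGPT2), beside 24.4% and 20.1% of all genes tested.

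Of the VEGF ligands, PGF, placental growth factor, was at 3.02, 1.68 and 5.22 scaled FPKM in bulk sh-NC and at 1.27, 1.22 and 1.00 in bulk sh-B7-H3 (1) libraries. The groups did not overlap, although sh-NC replicate 2 came close to the sh-B7-H3 (1) libraries. The log2 fold change was −0.91 ± 0.28 (SE; adjusted p = 0.0605, limma), and without that library the adjusted p was 0.0268. It also passed on FPKM as deposited, and at 0.0134 with all 15 libraries in one fit. PGF passed in only 3 of 12 settings, and the limma adjusted p reached 0.156 in others. VEGFC, the lymphatic growth factor, ranged from 0.46 to 1.04 against 0.50 to 1.12.

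In the angiopoietin-TIE system, ANGPT2 was at 3.52, 1.73 and 3.78 scaled FPKM in bulk sh-NC and at 1.52, 1.19 and 1.56 in bulk sh-B7-H3 (1) libraries. Again no sh-B7-H3 (1) library reached the lowest sh-NC library, replicate 2, and the log2 fold change was −0.69 ± 0.22 (SE; adjusted p = 0.0666, limma; 0.0168 without that library and 0.0153 with all 15 libraries in one fit). ANGPT2 passed in only 3 of 13 settings, and the limma adjusted p reached 0.196 in others. ANGPT1, its counterpart, was too low to be tested and was at 0.03, 0.34 and 0.11 against 0.82, 0.68 and 0.43. The ANGPT1 libraries of the groups did not overlap either, in the opposite direction to ANGPT2 (two-sided exact permutation p = 0.1, the smallest possible). ANGPT1 rested on 3.7 to 71.4 implied fragments a library and shares 17.3% of its exon bases with an antisense gene, and whether the counting used strand is not given in the sources used here. The receptor TIE1 was at 2.02, 2.78 and 3.02 against 2.07, 3.25 and 1.41, and TEK, the receptor of both ligands, was untested at 0.32 to 0.61 against 0.58 to 1.08.

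Among the tip cell, apelin and Notch genes, all 5 were tested and APLN was called. APLN was at 10.3, 6.47 and 15.3 scaled FPKM in bulk sh-NC and at 3.79, 4.49 and 4.30 in bulk sh-B7-H3 (1) libraries. The sh-B7-H3 (1) libraries were close together and all below the sh-NC libraries, with a log2 fold change of −1.10 ± 0.26 (SE; adjusted p = 0.0298, limma). Its direction was the same under all alternatives, and the call was lost in 6 of 13 settings (adjusted p from 0.0126 to 0.117), among them leaving out sh-NC replicate 1 (0.0754) or 3 (0.0662), or sh-B7-H3 (1) replicate 1 (0.117) or 3 (0.0561). Its receptor APLNR was at 0.74, 2.12 and 1.25 against 3.42, 3.87 and 1.59, which overlapped (log2 fold change 0.73, adjusted p = 0.115, limma; 0.0399 without sh-B7-H3 (1) replicate 3). APLNR passed in only 1 of 12 settings, and the limma adjusted p reached 0.293 in others. ESM1, endocan, passed in only 1 of 12 settings, with a limma adjusted p of up to 0.531 in others. It was at 2.65, 0.94 and 2.58 against 0.99, 1.16 and 1.44, with sh-NC replicate 2 again the lowest of its group (adjusted p = 0.249, limma; 0.0360 without that library). That library was the lowest sh-NC library for the tip cell genes ESM1, ANGPT2 and APLN and for PGF, but also for RAMP2, CAV1 and VWF. KDR and DLL4, which also act in tip cells, were lowest in sh-NC replicate 1, as were the 3 junction genes PECAM1, CDH5 and CLDN5. DLL4 was at 1.47, 1.52 and 2.44 against 1.65, 1.47 and 0.89, and the endothelial receptor NOTCH4 ranged from 1.03 to 1.26 against 0.72 to 1.38.

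**Figure D3:**
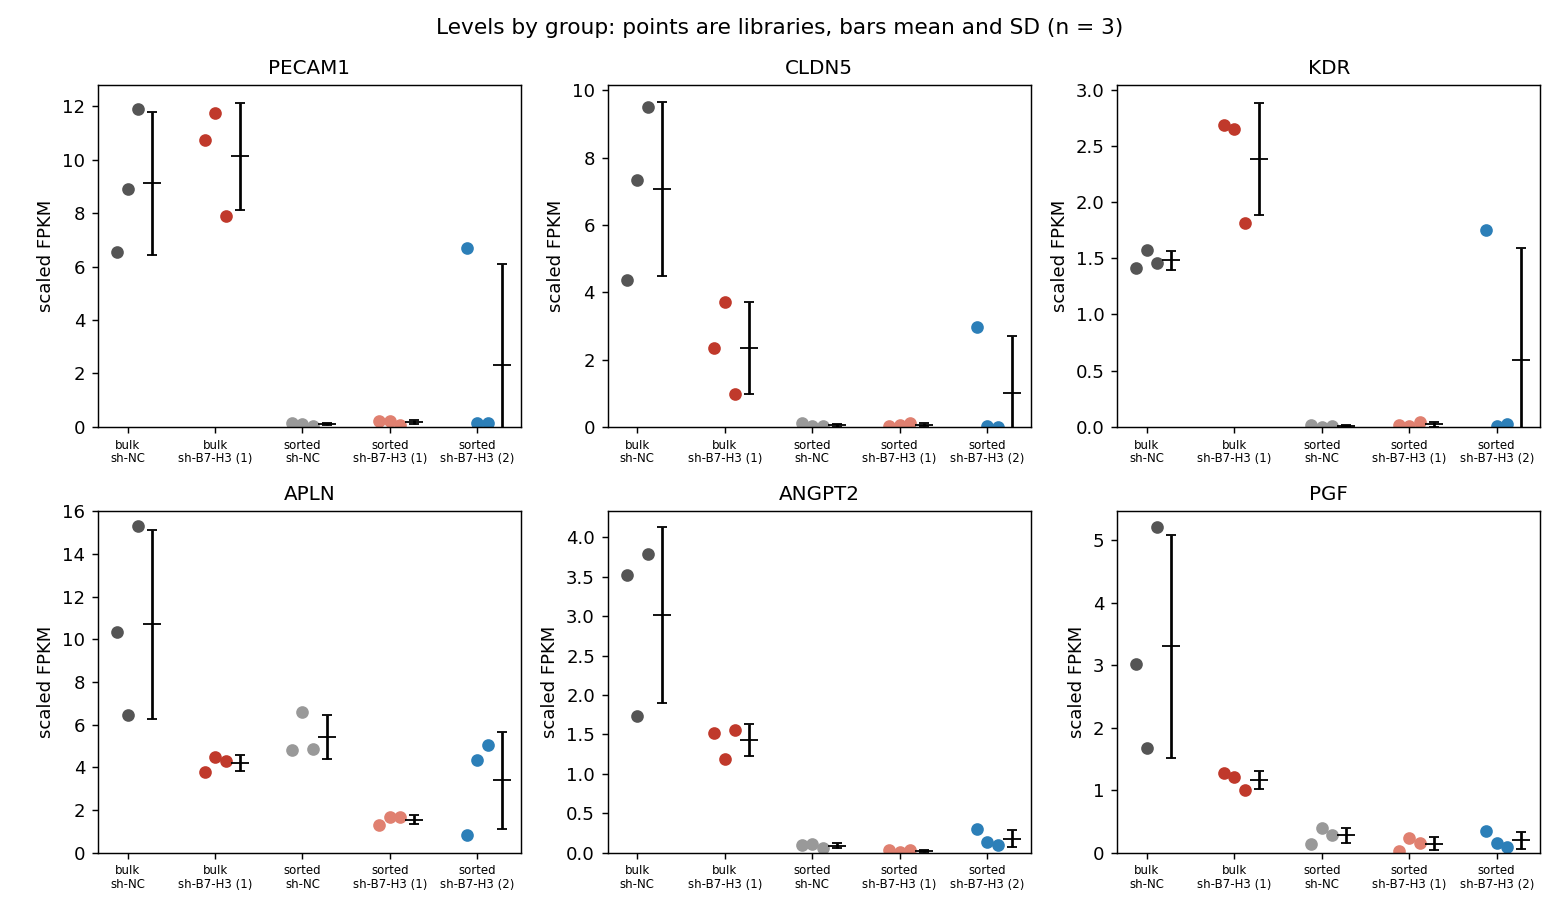
Scaled FPKM (linear axis from 0) of PECAM1, CLDN5, KDR, APLN, ANGPT2 and PGF in the 5 groups, with points for libraries and bars for mean and SD (n = 3). The bulk sh-B7-H3 (1) libraries lie below the bulk sh-NC libraries for CLDN5, APLN, ANGPT2 and PGF and above them for KDR, the groups overlap for PECAM1, and 1 sorted sh-B7-H3 (2) library is far above the other sorted libraries for PECAM1, CLDN5 and KDR.

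The promoters of the 2 genes that were called in bulk tumors are shown because both fell, and they were searched for the core AGGAAG of the ETS factors, the family of ERG and FLI1, on both strands (reverse complement CTTCCT). They are the 250 bases before the RefSeq start site on GRCm38.p6, given on the strand of the gene, with matches in capitals. Cldn5 lies on the plus strand of chromosome 16, its gene spanning 18776847 to 18778262 in the GRCm38 annotation, and its window is chr16:18776597-18776846. Apln lies on the minus strand of chromosome X, spanning 48025146 to 48034853, and its window is chrX:48034854-48035103.
Cldn5: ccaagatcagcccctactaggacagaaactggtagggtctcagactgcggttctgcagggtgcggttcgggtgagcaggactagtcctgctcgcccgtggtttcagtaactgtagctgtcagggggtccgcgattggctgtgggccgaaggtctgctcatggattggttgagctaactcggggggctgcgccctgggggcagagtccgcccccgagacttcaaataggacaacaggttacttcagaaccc
Apln: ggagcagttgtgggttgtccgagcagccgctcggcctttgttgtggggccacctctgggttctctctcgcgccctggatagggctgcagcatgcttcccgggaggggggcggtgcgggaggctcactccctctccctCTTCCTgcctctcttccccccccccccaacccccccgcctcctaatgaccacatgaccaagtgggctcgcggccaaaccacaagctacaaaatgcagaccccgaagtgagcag
Apln held 1 match, 113 bases before the start, and Cldn5 held none. The core was present in 29.5% of 32851 RefSeq promoter windows of that length, and in 12 of the 30 windows (40%) of the 23 genes of the set with an entry. The core of the hypoxia response element, ACGTG (reverse complement CACGT, chosen after the values were seen), was in neither window, in 16.6% of all windows and in 2 of the 30 windows of the set. A match is a description of letters and not a binding site.

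The remaining roles held no call. The transcription factor SOX18 was at 1.75, 2.75 and 3.01 scaled FPKM in bulk sh-NC and at 3.98, 4.57 and 2.88 in bulk sh-B7-H3 (1) libraries (adjusted p = 0.125, limma), and ERG, an ETS factor that maintains endothelial identity, ranged from 0.90 to 1.27 against 1.04 to 1.34. SOX17, an arterial factor, was untested at 0.31 to 0.54 against 0.22 to 0.38. PDGFB ranged from 23.5 to 32.1 against 22.6 to 46.5. CAV1, the coat protein of caveolae, ranged from 5.28 to 10.9 against 6.63 to 14.8, and CAVIN2, its partner, was untested at 0.52 to 0.97 against 0.84 to 2.38. The highest values of PDGFB, CAV1 and CAVIN2 were all in sh-B7-H3 (1) replicate 2. VWF, which binds platelets, ranged from 1.54 to 2.11 against 1.06 to 2.06. SELP, P-selectin, was untested and did not overlap, at 0.10, 0.24 and 0.17 against 0.67, 0.84 and 0.29 (two-sided exact permutation p = 0.1), on 8.55 to 64.4 implied fragments, and it shares 12.7% of its exon bases with a noncoding gene.

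Markers of other cell types also moved between the bulk groups. The summed level of 6 fibroblast markers was between 81.1 and 156 scaled FPKM in sh-NC and between 265 and 635 in sh-B7-H3 (1) libraries, and 4 of the 5 tested were higher. 5 T cell markers summed to between 1.20 and 2.05 against 4.95 and 15.02, with both tested markers higher. No T cell marker reached 1 scaled FPKM in all 3 sh-NC libraries. Both therefore entered the test only with the help of sh-B7-H3 (1) libraries, which favored a call of higher, so that count carries no weight. 5 skeletal muscle markers summed to between 2.50 and 18.3 against 28.7 and 599, the highest in replicate 2, and 3 of 5 were higher. The muscle gene MYH4 likewise did not reach 1 scaled FPKM in all 3 sh-NC libraries. 5 platelet markers summed to between 35.4 and 70.4 against 7.89 and 14.2, and 1 of 2 tested, PF4, was lower. PF4 made up most of that sum in every bulk library, so the sum mainly gives the level of 1 gene. 5 leukocyte markers overlapped, from 154 to 229 against 142 to 308, as did the 5 endothelial markers, from 20.9 to 37.96 against 18.7 to 30.2. Adipocyte markers were highest in sh-B7-H3 (1) replicate 2, at 264, and overlapped otherwise, and sums of macrophage markers, from 451 to 668 against 492 to 832, and of tumor epithelium markers, from 618 to 711 against 704 to 898, overlapped as well. In each of the macrophage and epithelium lists 1 gene was called, and both were higher. The macrophage gene CD68 changed by 0.65 (adjusted p = 0.0176, limma), and the epithelial gene EPCAM was at 25.8, 25.0 and 12.8 scaled FPKM in sh-NC and at 141, 90.0 and 182 in sh-B7-H3 (1) libraries, a log2 fold change of 2.65 (adjusted p = 0.00457, limma). Their part in the levels of CLDN5, APLN and the other vessel genes was not tested.

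Further genes of the same pathways were read from lists, whose counts stand beside the 12.8% of all genes called higher and 8.52% called lower. Of the VEGF and hypoxia list, 10 of 12 genes were in the table and tested, of which 1 was higher and 5 lower, with a median log2 fold change of −0.53. SLC2A1, the glucose transporter GLUT1, was at 92.2, 88.4 and 121 scaled FPKM in bulk sh-NC and at 30.7, 35.5 and 47.2 in bulk sh-B7-H3 (1) libraries, a log2 fold change of −1.39 (adjusted p = 0.00526, limma). ADM, adrenomedullin, the ligand of the receptor that RAMP2 serves, changed by −1.18 (adjusted p = 0.032) and the oxygen sensor EGLN3 by −1.08 (adjusted p = 0.00308), and EPAS1, the hypoxia factor most used by endothelium, by 0.66 (adjusted p = 0.0341), all by limma. VEGFA was at 61.1, 50.0 and 59.7 against 37.9, 31.0 and 47.6, with no overlap and an adjusted p of 0.0538 (limma).

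The same background of 12.8% higher and 8.52% lower applies to the lists that follow. Of 20 other endothelial genes, 19 were in the table and 15 tested, of which 4 were higher and 0 lower (0 lower also at an unadjusted p under 0.05), with a median log2 fold change of 0.15. Of the genes called, the largest changes were TMEM204 at 0.64, the phosphatase PTPRB at 0.63 and the ETS factor FLI1 at 0.57 on the log2 scale. GPIHBP1, which holds lipoprotein lipase on capillaries and was picked after its value was seen, had a larger estimate of −0.73 that did not pass the test (adjusted p = 0.18, limma), with overlapping groups. FLI1 is also expressed by blood cells. Of 9 further Notch genes, 6 were tested and 4 were higher, among them the ligands JAG1 (0.63) and DLL1 (0.57) and the target HEYL (0.55). DLL1 and HEYL did not reach 1 scaled FPKM in all 3 sh-NC libraries. They entered the test only with the help of sh-B7-H3 (1) libraries, which favored a call of higher, so the Notch count is not read against the background. JAG1 was at 2.89, 3.11 and 2.89 scaled FPKM in sh-NC and at 4.85, 4.85 and 5.81 in sh-B7-H3 (1) libraries, well apart. Of 10 mural cell genes, 9 were tested, of which 3 were higher, NOTCH3 (0.88), TAGLN (0.78) and RGS5 (0.69), and 1 lower, the pericyte potassium channel KCNJ8 (−0.73). Of 11 angiogenesis inhibitors, 10 were tested, of which 4 were higher and 2 lower. The chemokine CXCL9 changed by 2.23, the matrix protein THBS2 by 1.93 and SERPINF1 by 1.44, while the platelet chemokine PF4 changed by −2.41 and the protease ADAMTS1 by −0.59. PF4 was at 42.5, 33.0 and 67.7 scaled FPKM in sh-NC and at 5.49, 12.7 and 6.58 in sh-B7-H3 (1) libraries. Of 6 other lymphatic genes, 2 were tested and 0 called (0 higher and 1 lower at an unadjusted p under 0.05, limma).

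The change of bulk tumors was also set against that of sorted cells, to ask whether the sh-B7-H3 (1) difference was particular to tumors with their stroma. In the test of that difference (bulk minus sorted), 0 of 29 tested genes of the set were called by limma, beside 0.464% of 12062 genes. That share is for the adjusted p. At an unadjusted p under 0.05 there were 5 (CLDN5, KDR, ENG, ANGPT2 and PGF), with no share of all genes to set beside them. For CLDN5 the difference was −1.32 ± 0.41 (SE; adjusted p = 0.212, limma; 0.0356 on FPKM as deposited). In sorted sh-NC and sh-B7-H3 (1) cells most of these genes were near 0. CLDN5 was at most at 0.10 scaled FPKM there and KDR at 0.05. With 1 added to each value, their change in sorted cells was held near 0. For such genes the test largely repeats the bulk change and cannot say whether it was particular to tumors with their stroma. APLN, which was detected in both materials, differed by 0.23 (adjusted p = 0.735, limma).

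The comparison of bulk tumors with sorted cells asked how levels differed once host cells had been depleted. Markers of some other cell types were not lost from sorted cells. Fibroblast markers summed to between 31.2 and 77.5 scaled FPKM in sorted sh-NC cells against 81.1 to 156 in bulk sh-NC tumors. Skeletal muscle markers were higher in sorted sh-NC cells, at 46.9 to 91.3, than in bulk sh-NC tumors, at 2.50 to 18.3. In sh-B7-H3 (1) the muscle sums overlapped, at 26.8 to 70.1 in sorted cells against 28.7 to 599 in bulk tumors. Their part in the levels of sorted cells was not tested. Over all 38 genes with no filter, the bulk libraries were all above the sorted libraries for 32 genes in sh-NC and for 36 in sh-B7-H3 (1), which share no library, and all below for 0 in both. The background was 20.8% of 18169 genes all above and 12.4% all below in sh-NC, and 27.8% of 18095 and 17.6% in sh-B7-H3 (1). In sh-NC the 6 exceptions were ANGPT1, APLN, LYVE1, PROX1, SELE and SELP, and in sh-B7-H3 (1) RAMP2 and PROX1. Limma called 10.4% of all genes tested higher in bulk sh-NC tumors and 21.1% higher in bulk sh-B7-H3 (1) tumors. Most genes of the set reached the test only through the bulk libraries, so a count of their calls carries no weight. PECAM1 was at 0.15, 0.12 and 0.05 scaled FPKM in sorted sh-NC cells, against 6.55, 8.90 and 11.9 in bulk tumors, and at 0.23, 0.23 and 0.09 in sorted sh-B7-H3 (1) cells. The log2 difference of bulk from sorted, fitted with no filter on low values, was 3.16 ± 0.21 in sh-NC (SE; adjusted p = 0.000387, limma) and 3.22 ± 0.17 in sh-B7-H3 (1) (adjusted p = 0.000616). In the same fits CDH5 stood at 3.28 and 3.24 and PLVAP at 2.75 and 3.07. Without any 1 of the bulk libraries, most genes of the set were not at 1 scaled FPKM in 3 libraries and could not be tested. The calls then numbered 3, 3 and 2 without bulk sh-NC replicate 1, 2 or 3, and 3, 3 and 4 without bulk sh-B7-H3 (1) replicate 1, 2 or 3.

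5 genes were at 1 scaled FPKM or more in each of the 8 sorted libraries other than sh-B7-H3 (2) replicate 1, namely RAMP2, PDGFB, APLN, CAV1 and ECSCR. RAMP2 was at 103, 84.8 and 102 in sorted sh-NC cells and at 111, 106 and 115 in bulk sh-NC tumors, and its log2 difference of bulk from sorted was 0.20 in sh-NC (adjusted p = 0.355, limma) and −0.07 in sh-B7-H3 (1) (adjusted p = 0.647, limma). PDGFB was at 17.3, 16.6 and 14.8 in sorted sh-NC cells, lower than in bulk by 0.76 on the log2 scale (adjusted p = 0.0138, limma). That call was lost without bulk sh-NC replicate 2 (adjusted p = 0.125) or 3 (0.0879), without sorted sh-NC replicate 2 (0.0591) and on FPKM as deposited (0.434). CAV1 was at 3.04, 2.78 and 2.28 and ECSCR, a surface protein of endothelial cells, at 1.53, 1.75 and 1.73 in sorted sh-NC cells. These 5 genes were thus detected in both materials, while CLDN5, at 0.10, 0.03 and 0.02 in sorted sh-NC cells, rested there on 1.04 to 5.17 implied fragments.

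APLN was the gene of the set that fell in sorted cells labelled sh-B7-H3 (1). It was at 4.80, 6.59 and 4.86 scaled FPKM in sorted sh-NC and at 1.30, 1.65 and 1.67 in sorted sh-B7-H3 (1) cells. The groups were far apart, with a log2 fold change of −1.33 ± 0.15 (SE; adjusted p = 0.00066, limma), and the gene was called in 13 of 13 settings. Of the 6 genes tested, 0 were higher and 1 lower, against a background of 9.03% of 11163 genes higher and 4.38% lower. At an unadjusted p under 0.05, for which no background is given, 1 was higher (CAV1) and 2 lower (APLN and PLVAP). In sorted sh-B7-H3 (2) cells APLN was at 0.81, 4.32 and 5.05, with the lowest value in replicate 1, and did not pass the test against sh-NC (log2 fold change −0.72, 95% interval −1.70 to 0.27, adjusted p = 0.299, limma). Without that replicate the log2 fold change was −0.17 (adjusted p = 0.606), and the difference between the shRNAs, a comparison added after the values were seen, then had a log2 value of −1.16 and an adjusted p of 0.00217, against −0.61 and 0.425 with all libraries. Whether the APLN response differed between the shRNAs therefore turned on replicate 1.

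In sorted sh-B7-H3 (2) cells, 8 genes were tested and 4 were called higher than in sh-NC and 0 lower, where 11.7% of 11243 genes were higher and 7.44% lower. CAVIN2 and DLL4 reached 1 scaled FPKM only in the sh-B7-H3 (2) libraries and could only be called higher, so the count is not read against that background, and their tests below come from a fit with no filter. CAVIN2 was at 0.23, 0.25 and 0.28 scaled FPKM in sorted sh-NC and at 2.89, 3.76 and 3.18 in sorted sh-B7-H3 (2) cells, a log2 fold change of 1.77 ± 0.10 (SE; adjusted p = 0.00109, limma, no filter). The 3 libraries were alike, although the endothelial and leukocyte markers of replicate 1 were at bulk tumor levels. Fibroblast markers were also higher in all 3, at a sum of 152, 114 and 114 scaled FPKM against 31.2 to 77.5 in sorted sh-NC cells. Of the 5 fibroblast markers tested, 3 were called higher, COL1A1 (log2 fold change 1.48, adjusted p = 0.0277), COL1A2 (1.71, 0.00992) and COL3A1 (1.57, 0.00423), by limma. Their part in the level of CAVIN2 was not tested. CAVIN2 was at 0.32, 0.39 and 0.21 in sorted sh-B7-H3 (1) cells, and the difference between the shRNAs was called (log2 −1.71 ± 0.11, SE; adjusted p = 0.0123, limma, no filter). DLL4 was at 0.29, 0.08 and 0.21 in sh-NC and at 2.21, 1.19 and 1.32 in sh-B7-H3 (2) cells, the highest in replicate 1 (log2 fold change 1.09 ± 0.17, SE; adjusted p = 0.0134, limma, no filter). It shares 5.71% of its exon bases with a gene on the opposite strand. Against sh-B7-H3 (1), where DLL4 was at 0.29, 0.32 and 0.38, its log2 difference was −0.93, which did not pass the test with no filter (adjusted p = 0.0739, limma). It passed with the filter (0.0289), but not then without any 1 of the sh-B7-H3 (1) libraries (adjusted p = 0.0764, 0.0987 and 0.103).

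PDGFB was at 21.9, 23.8 and 24.5 scaled FPKM in sorted sh-B7-H3 (2) cells, above sh-NC by 0.50 on the log2 scale (adjusted p = 0.0226, limma), and ECSCR at 4.55, 2.76 and 2.80, above by 0.69 (adjusted p = 0.0291). Without replicate 1 of sh-B7-H3 (2), ECSCR differed by 0.50 (adjusted p = 0.0469) and PDGFB by 0.55 (adjusted p = 0.0496), while CAVIN2 and DLL4 then had too few libraries at the filter to be tested, at 3.76 and 3.18 and at 1.19 and 1.32. Both the PDGFB and the ECSCR call were lost in 6 of 13 settings, among them leaving out sorted sh-NC replicate 2 or 3 or sh-B7-H3 (2) replicate 2 or 3. Without sorted sh-B7-H3 (2) replicate 2, or without replicate 3, 0 genes of the set were called. CAVIN2 and DLL4 again had too few libraries at the filter to be tested, so for them this is no loss of a call. Between the shRNAs, CAVIN2 and DLL4 were the 2 of 8 tested genes called at the filter, where 1.64% of 11239 genes were lower in sh-B7-H3 (1) and 3.4% were called in either direction. Both passed the filter only through sh-B7-H3 (2), which fixed their direction, so the count is not read against those shares. With the replicate number as a block, which these libraries share in their deviations, the count over the whole table rose from 382 to 1864 and that of the set stayed at 2.

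**Figure D4:**
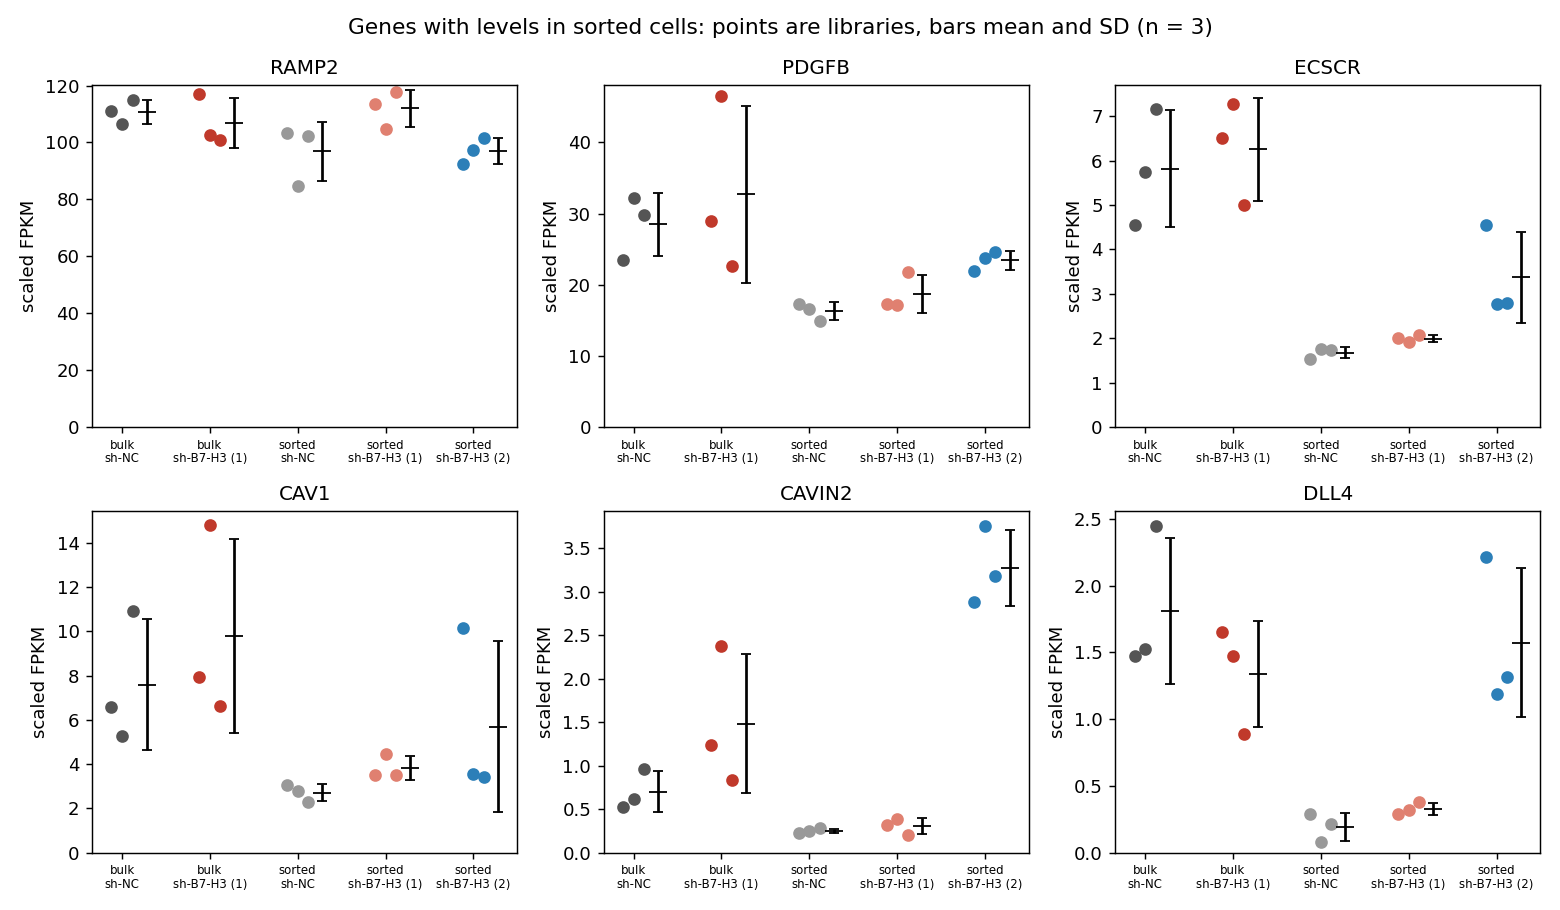
Scaled FPKM (linear axis from 0) of RAMP2, PDGFB, ECSCR, CAV1, CAVIN2 and DLL4 in the 5 groups, with points for libraries and bars for mean and SD (n = 3). RAMP2 is near 100 in every group, and CAVIN2 is near 3 in all 3 sorted sh-B7-H3 (2) libraries and below 0.4 in the other sorted libraries.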

How the data were processed

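RNA libraries of 105K tumors were compared by group as the labels give them, 3 libraries in each of 5 groups. The authors deposited 1 FPKM value per gene and library. The submitters' processing notes name the build mm10, and the aligner, annotation and strand setting are not given in the sources used here. The labels name an Illumina stranded mRNA kit and the study's methods another kit. A second deposited table of transformed values for fewer genes was not used.

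Of 24917 entries, 26 bore dates in place of symbols and were dropped. Each library was then scaled by a median-ratio factor, taken over the 9872 genes that reached 1 FPKM throughout. After 1 was added, log2 values were compared by limma 3.58.1 under R 4.3.3, allowing for a mean-variance trend and fitting only the libraries of each comparison. Adjustment was by Benjamini-Hochberg over all genes tested, and the procedure was tested on simulated data. All 38 genes are named. From each further list, at most 3 called genes in each direction and VEGFA are named. Genes and lists were chosen with earlier results of these data known. The pseudocount, filter, scaling, samples in the fit, replicate block and each library were varied. The numbers shared by replicates correlated above 0.1 in every pair for the 2 sorted shRNA groups only (0.316, 0.330 and 0.357), and the labels do not say what they mark. Fragments implied by the smallest steps of FPKM used exon lengths of the GRCm38 GENCODE annotation, so they are approximate and cover counting error only. Tables and plots used pandas 2.3.3, numpy 2.4.6 and matplotlib 3.10.9 in Python 3.11.15.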

Additional observations from a re-analysis of the deposited data

How the results depend on the processing

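No result changed direction where it had been called. In bulk tumors, 2520 genes were called in all, 961 on FPKM as deposited, 1413 with the replicate block and 546 to 3793 without 1 library, and genes of the set were lower in 2 cases (3 on FPKM as deposited and 3 with all 15 libraries in one fit, 1 with a pseudocount of 0.1, 0 with no filter, 0 with the replicate block, 0 to 4 without 1 library) and higher in 0 (1, KDR, with a filter of 1 scaled FPKM in every library, 0 to 3 without 1 library). For bulk over sorted sh-NC, 1924 genes were called (652 on FPKM as deposited, 1279 with the filter in every library, 3082 with all 15 libraries in one fit, 139 to 4436 without 1 library), and 21 of the set were higher (4 with the filter in every library, 2 to 21 without 1 library). For bulk over sorted sh-B7-H3 (1), 4464 genes were called (1674 to 3814 without 1 library), and 19 of the set were higher (33 with no filter, 4 with the filter in every library, 3 to 19 without 1 library). In sorted cells, sh-B7-H3 (1) against sh-NC gave 1497 (915 with the replicate block, 722 to 1948 without 1 library), with 1 of the set lower throughout, and sh-B7-H3 (2) against sh-NC gave 2150 (1395 with the block, 962 to 3614 without 1 library), with 4 of the set higher (2 with the filter in every library, 2 with the block, 0 to 4 without 1 library). Between the shRNAs, 382 genes were called (137 with no filter, 1864 with the block, 35 to 890 without 1 library), with 2 of the set lower (1 with no filter, 0 with the filter in every library, 0 to 1 without 1 library). For the difference between bulk and sorted effects, 56 genes were called (128 on FPKM as deposited, 25 with a pseudocount of 0.1, 13 with the filter in every library, 36 with all 15 libraries, 24 with the block, 12 to 72 without 1 library), with 0 of the set, or 1 lower, CLDN5, on FPKM as deposited. The filter in every library leaves fewer genes to test, and the cause of the other shifts was not tested. At the main filter, most genes of the set reached the tests of bulk over sorted only through the bulk libraries. CAVIN2 and DLL4 reached those of sh-B7-H3 (2) only through its own libraries. Their direction was thus fixed, and these counts of the set only show how calls moved with the settings.

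Apart from the 2 sorted shRNA groups, numbers did not pair the libraries, since correlations of same-numbered deviations lay between −0.538 and 0.412 and not every library correlated best with its own number. Read totals are unknown, so low genes such as PROX1 and SELE are limited by depth, and 3 libraries a group limit every p.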
